A study of Mus musculus with 2 samples.

Results

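The proteasome is the large protease that unfolds and degrades ubiquitin-tagged proteins in every cell, and its constitutive subunits were read here on gene microarrays of the mouse macrophage line RAW264.7. Genes were taken by symbol alone, as those that start with Psma, Psmb, Psmc or Psmd followed by a digit, without *Psmb8*, *Psmb9* and *Psmb10*, the catalytic subunits of the immunoproteasome. The rule found 37 of the 20655 genes that could be named on the array. Of these, 34 encode subunits or assembly chaperones of the common proteasome. The other 3 are *Psma8*, a testis counterpart of *Psma7*, *Psmb11*, a thymus counterpart of *Psmb5*, and *Psmc3ip*, which shares the prefix but encodes a meiotic recombination protein.

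RAW264.7 cells derive from an ascites tumor that Abelson murine leukemia virus induced in a male BALB/c mouse, so all values come from 1 transformed line. A single culture received vehicle control and a single culture received IR-61, a near-infrared dye that the study designed to reach mitochondria, at 10 μM, both for 24 h in DMEM with serum. RNA of each culture was labelled with Cy3 and hybridized to its own Agilent mouse array, so there was 1 array per condition, no test between the conditions was possible and no p-value is given. Differences between individual cultures and a response to IR-61 cannot be told apart in this design.

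The 2 arrays differed in overall brightness. The 75th percentile of the log2 intensities was 10.30 with vehicle and 10.79 with IR-61, and it was subtracted from each array, so a scaled log2 signal of 0 is the 75th percentile of that array. Each difference below is IR-61 minus vehicle on this log2 scale, and without the scaling every difference would be larger by 0.49. A gene counted as measured when both arrays read its brightest probe well above background, which held for 16885 genes. Their median difference was 0.10, and 0.59 without scaling, so differences of proteasome genes are also set against that median. The only measurable error was the spread between spots of the same probe within an array. From it, the SD of a difference was 0.094 for genes with a log2 intensity above 10 on both arrays and 0.23 for genes between 6 and 10, and it leaves out all variation between cultures. Of the 8 macrophage markers checked, 7 were named on the array and all 7 were measured, among them *Csf1r* and *Adgre1*. All 4 fibroblast markers were measured too, with *Col1a1* at a signal of 27148 with vehicle and 58670 with IR-61. Their summed signal was 59579 and 104499, and their part in the proteasome values was not tested. Of the 4 T cell markers 3 were measured, of the 4 epithelial markers 2, and of the 3 B cell markers all 3. The others, *Cd3g*, *Epcam* and *Cdh1*, did not exceed background on either array by the scanner's flag. Among the measured ones, *Cd3e* had a signal of 684 with vehicle and 957 with IR-61, and *Ms4a1* had 353 and 180.

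The 20S core of the proteasome is a barrel of outer alpha rings, which gate the entrance, and inner beta rings, which hold the catalytic sites. The 19S cap sits on the barrel. Its ring of ATPases unfolds the substrate, and its non-ATPase subunits bind and remove ubiquitin. Dedicated chaperones build the cap and leave it before it works. Cells adjust the supply of subunits largely through the transcription factor NFE2L1, which acts on many proteasome genes together. Activated macrophages can also exchange the catalytic subunits for those of the immunoproteasome.

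Of the 37 genes, 36 were measured on both arrays, and *Psmb11* was not well above background on either, with signals of 2.99 and 4.88. The median of the proteasome genes stayed close to that of all measured genes, with 25 of the 36 below the latter and 11 above it. Their median difference was −0.01, or 0.11 below the median of all measured genes. Single genes lay between −0.68 for *Psmd9* and 0.56 for *Psma7*, and the SD across the 36 genes was 0.33, against 0.44 across all measured genes. It was 0.42 across measured genes in the signal range of the common subunits, and 0.36 across those with a mean log2 signal of 12 or more. None differed by 2-fold or more in either direction, as 3.38% of all measured genes did. At a limit of 1.5-fold, 3 of the 36 genes were lower, *Psmd9*, *Psmd8* and *Psmc3ip*, against 5.69% of all measured genes. None was higher by that much, against 9.79% of all measured genes. Without scaling, 12 of the 36 were higher by 1.5-fold or more and none was lower, where 50.5% and 1.14% of all measured genes passed these limits.

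**Figure D1:**
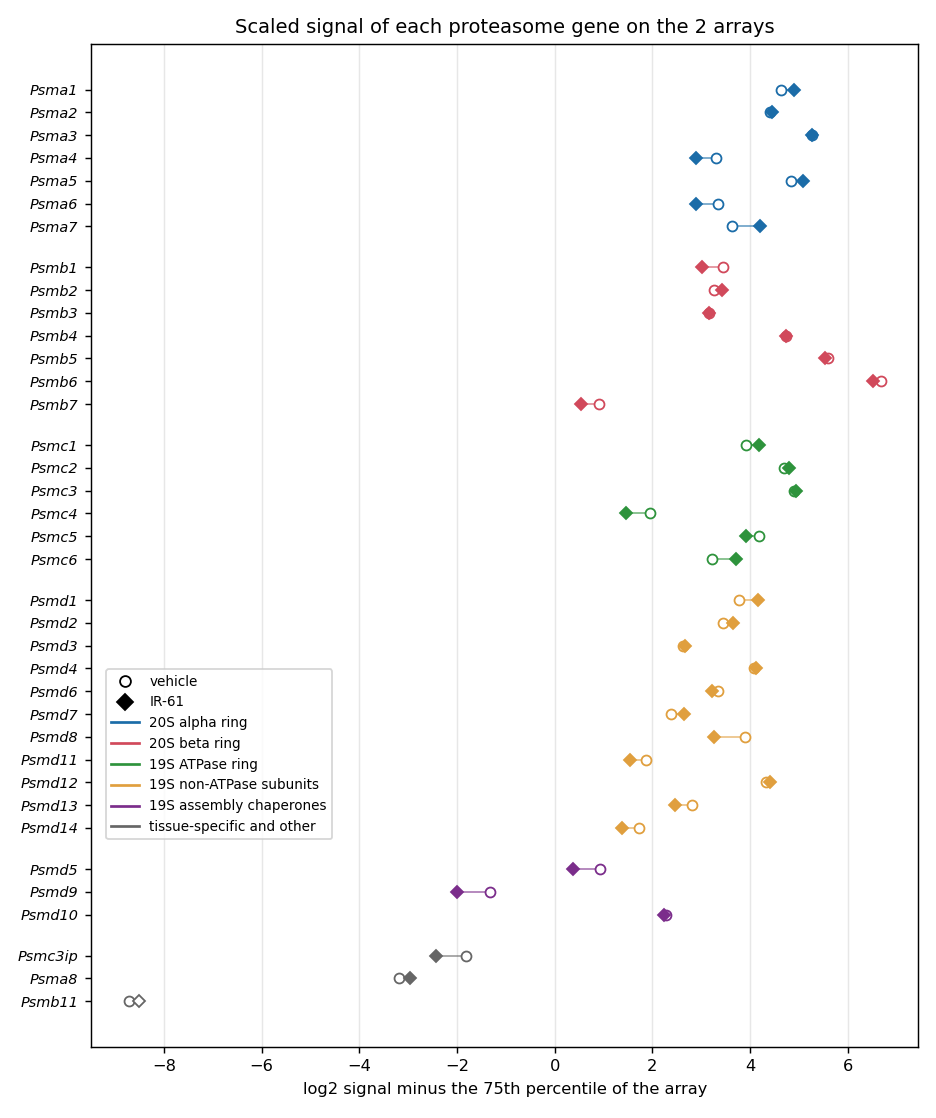
Scaled log2 signal of the 37 proteasome genes with vehicle (open circles) and with IR-61 (diamonds), 1 array each, grouped by their place in the complex. The horizontal axis is the log2 signal minus the 75th percentile of the array, the pairs of points lie at most 0.68 apart, and levels of different genes are not comparable.

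Smaller differences were counted with a second limit. At a log2 limit of 0.32, a lower limit than 1.5-fold, 12 of the 36 genes were lower with IR-61, or 33.3% against 14.5% of all measured genes, and 3 were higher, or 8.33% against 26.2%. With the other scalings between the arrays and the deposited log2 values, 12 or 13 were lower and 2 or 3 were higher. Of all measured genes, 16.3% to 18.8% were lower and 19.6% to 23.1% higher there. Normexp background correction and the dimmest probe of each gene were added after the data were seen. With normexp 10 members were lower and 4 higher, or 27.8% and 11.1% against 16.0% and 16.5% of all measured genes. With the dimmest probe it was 15 and 3, or 41.7% and 8.33% against 18.3% and 23.8%. Without scaling none was lower at this limit and 22 were higher, or 61.1% against 76.0% of all measured genes. Below the median of all measured genes lay 25 of the 36, a count that any constant scaling leaves as it is, and 23 with quantile normalization, loess or the deposited values. It was 17 of 36 after normexp background correction, a setting run after the data were seen, in which the median of all measured genes moved to −0.03 and the members stayed at −0.01. Past 2 SD between spots, 13 genes were lower and 7 were higher, against 14.0% and 23.3% of all measured genes. The remaining 16, or 44.4%, lay within that spread, against 62.7% of all measured genes. Bright genes have a smaller SD and pass it more readily. Of the 9089 measured genes in the signal range of the common subunits, 1799 were lower and 3092 higher past 2 SD, and 46.2% lay within.

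**Figure D2:**
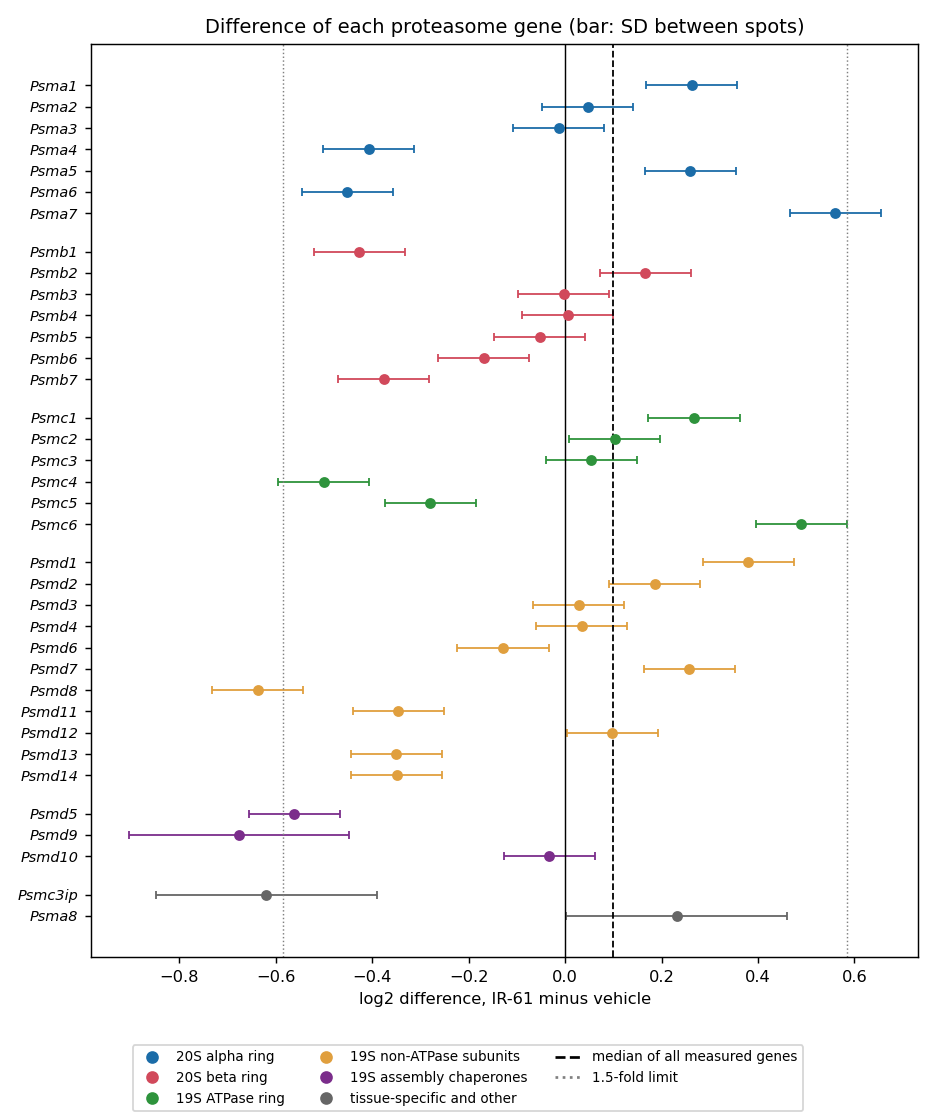
Log2 difference, IR-61 minus vehicle, of the 36 proteasome genes measured on both arrays, each bar being 1 SD as the spread between spots gives it, the dashed line the median of all measured genes at 0.10 and the dotted lines 1.5-fold. *Psmd9*, *Psmd8* and *Psmc3ip* lie past the lower dotted line and no gene past the upper one, while without scaling every point would move 0.49 to the right and 12 would lie past the upper one.

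In the alpha ring the 7 subunits split. *Psma7* had the highest difference of all the members. Its scaled signal was 3.64 with vehicle and 4.20 with IR-61, a difference of 0.56 and a 1.47-fold higher signal. *Psma1* had 4.63 with vehicle and 4.90 with IR-61, and *Psma5* had 4.83 and 5.09, so each was higher by 0.26, past 2 SD between spots. On the lower side were *Psma6*, at 3.35 with vehicle and 2.90 with IR-61, a difference of −0.45, and *Psma4* at −0.41. Without scaling these were at 0.04 and 0.08. *Psma2* at 0.05 and *Psma3* at −0.01 lay within the spread between spots. Each alpha ring holds 1 copy of each of the 7 proteins. The distance between the differences of *Psma7* and *Psma6* was 1.01 on the log2 scale, which no constant scaling alters. The median of the 7 was 0.05.

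In the beta ring 6 of the 7 subunits lay below the median of all measured genes, and the median difference was −0.05. Its 3 catalytic subunits cut after different residues. *Psmb5*, which carries the chymotrypsin-like site, had scaled signals of 5.59 with vehicle and 5.54 with IR-61, a difference of −0.05 within the spread between spots. Its dimmer probe read −0.23. *Psmb6*, which carries the caspase-like site, went from 6.68 to 6.51, a difference of −0.17 that is also under 2 SD. *Psmb7*, which carries the trypsin-like site, had 0.91 with vehicle and 0.53 with IR-61. Its difference of −0.38 was the only one of the 3 past 2 SD between spots with the brightest probes. Among the subunits without a catalytic site, *Psmb1* was at −0.43, and at 0.06 without scaling, while *Psmb3* at −0.002, *Psmb4* at 0.006 and *Psmb2* at 0.17 lay within 2 SD. No member of the beta ring passed 1.5-fold with scaling.

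Each catalytic subunit has a counterpart that replaces it in the immunoproteasome, and the distance between the differences of such a pair does not move with a constant scaling. *Psmb10*, the counterpart of *Psmb7*, had a difference of 0.28, so this pair moved 0.66 apart in favor of the immunoproteasome gene, with an SD between spots of 0.13. For *Psmb8*, the counterpart of *Psmb5*, the difference was −0.48, and the pair moved 0.43 apart in favor of the constitutive gene. For *Psmb9*, the counterpart of *Psmb6*, it was −0.07, and the pair stayed within 0.09, less than the SD between spots. The 3 pairs thus showed no common direction. With the dimmer of the probes of *Psmb5*, the distance to *Psmb8* was 0.25 in the same direction, and with quantile normalization and the deposited values *Psmb9* came out below *Psmb6* by 0.09.

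In the ATPase ring of the cap, *Psmc6* was higher and *Psmc4* lower, the latter by only 0.01 without scaling. *Psmc6*, the ATPase Rpt4, had a scaled signal of 3.22 with vehicle and 3.71 with IR-61, a difference of 0.49. *Psmc4*, the ATPase Rpt3, had 1.96 and 1.46, a difference of −0.50. Rpt3 and Rpt6 bind each other during assembly, and *Psmc5*, which encodes Rpt6, was at −0.28, and at 0.21 without scaling. *Psmc1* had 3.92 with vehicle and 4.18 with IR-61, a difference of 0.27. *Psmc3* had 4.89 and 4.95, a difference of 0.05, and *Psmc2* was at 0.10, both within 2 SD between spots. With the brightest probes the median of the 6 was 0.08, and 3 of them were below the median of all measured genes. This summary depends on the probe, since the dimmer probes of *Psmc1* and *Psmc3* read −0.37 and −0.47, and that of *Psmc2* 0.11.

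Of the 11 other cap subunits, *Psmd8* had the lowest difference, and of all the members it lay farthest from 0 in units of the spread between spots. It encodes the lid subunit Rpn12. Its scaled signal was 3.89 with vehicle and 3.25 with IR-61, a difference of −0.64 and a 1.56-fold lower signal, at −6.75 SD between spots. *Psmd8* was also lower as read off the scanner, at 18726 with vehicle and 16891 with IR-61. *Psmd13*, *Psmd14* and *Psmd11* followed at −0.35 each, and all 3 were at 0.14 without scaling. *Psmd14* encodes Rpn11, the enzyme that removes ubiquitin chains before the substrate enters, and its scaled signal was 1.73 with vehicle and 1.38 with IR-61. *Psmd11* encodes Rpn6, which clamps the cap to the core. On the higher side, *Psmd1*, which encodes the scaffold Rpn2, went from 3.77 with vehicle to 4.15 with IR-61, a difference of 0.38, and *Psmd7*, the partner of Rpn11, was higher by 0.26. *Psmd2*, which encodes the scaffold Rpn1, had 0.19. *Psmd12*, which encodes the lid subunit Rpn5, had 4.32 with vehicle and 4.41 with IR-61. With its brighter probe it lay between −0.13 and 0.10 together with *Psmd3*, *Psmd4* and *Psmd6*, all within 2 SD. The dimmer probe of *Psmd12* read −0.47. *Psmd4* encodes a ubiquitin receptor, and its difference was 0.03. The median of the 11 was 0.03.

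The 3 chaperones of the cap among the members, which were taken by symbol alone, had negative differences with scaling. *Psmd5* and the brighter probe of *Psmd9* had them also without it. *Psmd5* had scaled signals of 0.93 with vehicle and 0.37 with IR-61, a difference of −0.56, just inside the 1.5-fold limit of 0.58. With the other scalings, with a trend over the array removed and in the deposited values it passed that limit, at −0.64 to −0.59, beside the 3 genes named above. *Psmd9* had −1.33 and −2.01, a difference of −0.68 and a 1.60-fold lower signal, the lowest difference of all the members. Its dimmer probe read −0.11, which does not pass 1.5-fold and is 0.37 without scaling. *Psmd10*, also known as gankyrin, was at 2.28 and 2.24 with its brighter probe, within the spread between spots, and its dimmer probe read −0.45. Without scaling, *Psmd5* was at −0.07, *Psmd9* at −0.19 and *Psmd10* at 0.46. The chaperones of the core, *Psmg1* to *Psmg4* and *Pomp*, lay between −0.07 and 0.24 with their brightest probes, and the dimmer probe of *Pomp* read −0.45.

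Of the genes outside the common complex, *Psmc3ip* had a signal of 359 with vehicle and 328 with IR-61 and a scaled difference of −0.62. *Psma8* had signals of 138 and 227 and a difference of 0.23, close to 1 SD between spots for genes this dim. Leaving these genes and *Psmb11* out left the median of the members at −0.01, and 2 of the remaining 34 were lower by 1.5-fold.

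Before scaling, 5 of the 36 genes had a lower signal with IR-61, *Psmd9*, *Psmd8*, *Psmc3ip*, *Psmd5* and *Psmc4*. Their unscaled differences lay between −0.19 and −0.01. The unscaled median of all measured genes was 0.59, and the share of all measured genes below 0 before scaling was not counted. The direction of all other negative differences of members rests on the scaling. The differences also went with brightness. Among the 34 genes of the common proteasome, the difference and the mean log2 signal had a Pearson r of 0.54 and a Spearman rho of 0.51 across genes, which share the same arrays and are not independent. Across the 9089 measured genes in the same signal range these were 0.07 and 0.09. All 7 common members with a mean log2 signal under 13, *Psmd9*, *Psmd5*, *Psmb7*, *Psmd14*, *Psmd11*, *Psmc4* and *Psmd10*, had negative differences. Of the 14038 measured genes under 13, 39.4% had negative ones. Those genes reach down to a mean signal of 15.6, while the dimmest of the 7 members had 471. The share over the signal range of the 7 alone was not counted. Without scaling 3 of the 7 were negative. Among the 19 with a mean log2 signal from 13 to 15 the median was 0.03, and 8 were negative with scaling, or 42.1% against 30.1% of all measured genes there. Among the 8 members at 15 or more the median was also 0.03, and 3 were negative, or 37.5% against 51.2%. The limits of these brightness ranges were set after the values were seen.

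**Figure D3:**
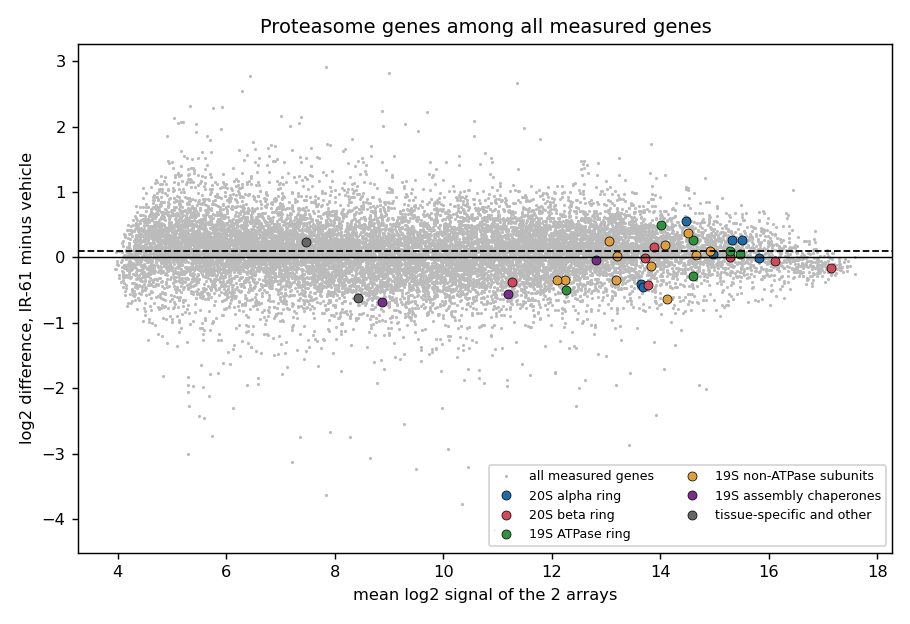
Log2 difference, IR-61 minus vehicle, against the mean log2 signal of both arrays for the 16885 measured genes (grey) and the 36 measured proteasome genes (colored by their place in the complex), with a dashed line at the median of all measured genes, 0.10. The proteasome genes lie between −0.68 and 0.56, those under a mean log2 signal of 13 lie below 0 except *Psma8*, and without scaling all points would move up by 0.49.

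For 8 of the genes the array holds a pair of probes, both of them measured on each array, and the probes of a gene did not always give the same answer. Both probes of *Psma4* were lower, at −0.41 and −0.44, and both of *Psmc2* were near the median of all measured genes, at 0.10 and 0.11. For *Psmc1* the brighter probe had a difference of 0.27 and the dimmer of −0.37. *Psmc3* read 0.05 and −0.47, and *Psmd12* read 0.10 and −0.47. *Psmd10* read −0.03 and −0.45, although its probes had close signals, at 6117 and 6738 with vehicle. *Psmd9* was the gene with the opposite order, with −0.68 for the brighter and −0.11 for the dimmer probe, and *Psmb5* read −0.05 and −0.23. The dimmer probe gave the lower difference in 6 of the 8 genes, and in 66.1% of the 4160 measured genes with several detected probes. Probes lay more than 0.5 apart in 4 of the 8, *Psmc1*, *Psmc3*, *Psmd9* and *Psmd12*, and in 33.1% of all such genes. In units of the spread between spots, the dimmer probe was lower by more than 2 SD in *Psmc1*, *Psmc3*, *Psmd10* and *Psmd12*. These are 4 of the 8, against 23.1% of all such genes. The probes of *Psmd9* lay within 2 SD. With the dimmest probe the median of the 36 members was −0.15 in place of −0.01. The positions of the probes in their transcripts were not used here.

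**Figure D4:**
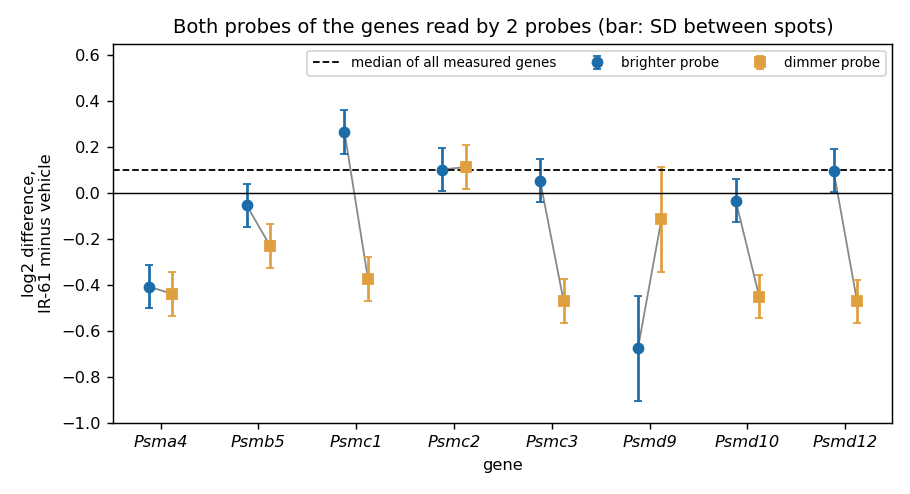
Log2 difference, IR-61 minus vehicle, of the brighter probe (circles) and the dimmer probe (squares) of the 8 proteasome genes read by a pair of probes, each bar being 1 SD between spots and the dashed line the median of all measured genes at 0.10. The dimmer probe is the lower of the pair for all but *Psmc2* and *Psmd9*, and without scaling all points would move up by 0.49.

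NFE2L1 and its relative NFE2L2 bind the antioxidant response element, so the promoters of the members were searched for its core, TGACNNNGC, on both strands. RefSeq promoter windows of the GRCm38.p6 assembly, from 250 bases before to 50 bases after a gene start, were given for 30 of the 37 genes. The core was found in 5 of the 30, or 16.7%, against 14.0% of the 27025 genes with a window. None of the 5 windows holds CCAAT, a box found in 43.3% of the members' windows and 41.1% of all. The 5 matches are shown because they are where NFE2L1 could be looked for in these genes, and no binding was measured. Each stretch runs 5′ to 3′ on the strand of the gene and ends before the gene start, with the match in capitals. In *Psmc6* and *Psmd12* the match is on the opposite strand, so the capitals show the reverse complement of the core.
*Psmb5*, chr14:54618009-54618067, minus strand: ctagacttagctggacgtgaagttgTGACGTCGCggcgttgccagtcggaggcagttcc
*Psmb6*, chr11:70525323-70525356, plus strand: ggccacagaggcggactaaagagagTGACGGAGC
*Psmd9*, chr5:123228134-123228189, plus strand: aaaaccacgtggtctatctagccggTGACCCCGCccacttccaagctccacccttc
*Psmc6*, chr14:45329574-45329630, plus strand: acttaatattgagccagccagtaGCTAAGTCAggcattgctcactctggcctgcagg
*Psmd12*, chr11:107479278-107479314, plus strand: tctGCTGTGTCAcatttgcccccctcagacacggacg
The differences of these genes covered nearly the whole range of the members, from −0.68 for *Psmd9* to 0.49 for *Psmc6*, with a median of −0.05, against −0.02 for the 24 measured genes whose windows hold no match.

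The rest of the pathway was read from lists of 40 genes, all measured on both arrays. Their median difference was −0.02, or 0.12 below the median of all measured genes. At 1.5-fold, 4 of the 40 were lower and none was higher, beside the 5.69% and 9.79% of all measured genes given above. The 4 were *Nfe2l1*, *Psmf1*, *Ddi2* and *Txnl1*. Without scaling the median of the 40 was 0.46.

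Of the lists, the NFE2L1 route had the lowest median, at −0.50 over 4 genes that lay far apart. *Nfe2l1* itself had a difference of −1.01, the only member of these lists past 2-fold, but its signal was dim, at 127 with vehicle and 88.2 with IR-61, and over the settings tried its difference ran from −1.12 to −0.52. Its activating protease *Ddi2* was at −0.70 with the brighter and −0.87 with the dimmer probe. *Nfe2l2* was at −0.30, while *Ngly1*, which removes sugars from NFE2L1, was at 0.45 with an SD between spots of 0.23. Without scaling *Nfe2l1* stayed negative at −0.52 and *Ddi2* at −0.21, whereas *Nfe2l2* was at 0.19.

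Of the regulators that dock on the core, the activator subunits *Psme1* and *Psme2* were at −0.17 and −0.16, the dimmer probe of *Psme2* reading −0.67, with *Psme3* at 0.03 and *Psme4* at −0.26. The inhibitor *Psmf1* was at −0.78, with signals of 217 and 177. Among the proteins that ride on the cap, the deubiquitinases *Uchl5* and *Usp14* were at 0.52 and 0.32, the dimmer probe of *Usp14* reading −0.78 at a signal of 244 with vehicle. The ubiquitin ligase *Ube3c* was at 0.36 and the ubiquitin receptor *Adrm1* at −0.04. The redox protein *Txnl1* was at −0.60, and the small subunit *Sem1* at −0.11.

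Upstream of the proteasome, *Vcp*, the ATPase p97 that extracts substrates, was higher by 0.50, with its cofactors *Ufd1* at −0.19 and *Nploc4* at 0.09. The shuttle factor *Ubqln1* was at 0.27, and *Rad23b* was at −0.37 with the brighter probe and 0.32 with the dimmer. The ubiquitin genes *Ubb* and *Rps27a* were at 0.002 and −0.03, and the activating enzymes *Uba1* and *Uba6* were at −0.07 and −0.18, the dimmer probe of *Uba6* reading −0.57.

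**Figure D5:**
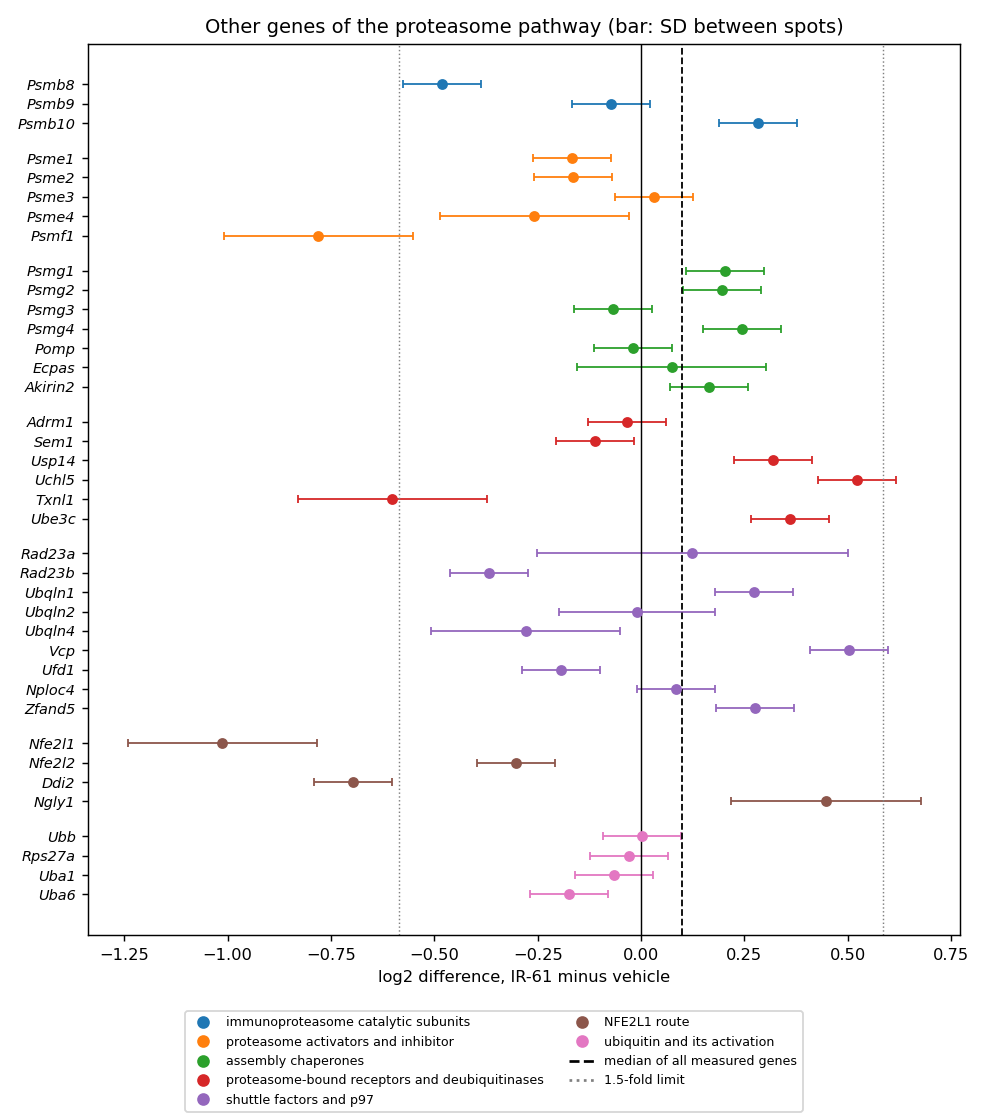
Log2 difference, IR-61 minus vehicle, of 38 of the 40 other genes of the proteasome pathway by list, each bar being 1 SD between spots, the dashed line the median of all measured genes at 0.10 and the dotted lines 1.5-fold. *Nfe2l1*, *Psmf1*, *Ddi2* and *Txnl1* lie past the lower dotted line and no gene past the upper one, while without scaling all points would move 0.49 to the right.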

How the data were processed

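RNA of 1 vehicle-treated and 1 IR-61-treated RAW264.7 culture was hybridized to single-colour Agilent arrays on a design annotated on mm9. The authors deposited the intensity of each spot, background-subtracted and detrended within the array by Agilent Feature Extraction, with flags for outliers, saturation and signal well above background. The submitters' processing notes give version 11.0.0.1 and the file headers 11.0.1.1. They also deposited a table of log2 values whose normalization is not given in the sources used here. Its medians were 7.15 in both columns, and across probes its Pearson r with the log2 intensities was 0.9995 (vehicle) and 0.9988 (IR-61).

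Outlier spots, 124 with vehicle and 139 with IR-61 and none of a member, were removed. Log2 intensities were averaged over the spots of each of 39419 probes and lowered by their 75th percentile. Of these probes 27224 were named by RefSeq accession through a GRCm38.p6 gene table, used for names only. A gene took its brightest unsaturated probe. Each member's probe was printed in 1 spot, so SDs come from other probes printed in 5 or more spots, in 3 ranges of brightness. No test was run. By rule, every member is named, and values on both arrays are given for the catalytic subunits, the 6 lowest and 6 highest differences, members whose probes lay over 0.5 apart and members not above background. Values on both arrays of *Psmd14*, *Psmd10* and *Psma8* were added after they were seen. Values of 2 genes of the pathway lists are not reported here. Members, lists and roles were chosen with earlier results of these data known. In simulated arrays with a shift of 0.5 between them, 94.5% of 199 changed genes were found at 1.5-fold. Every planted change lay past that limit and was larger than any difference of a member, and only the spread between spots was added. The share found therefore says nothing about differences of the size seen in the members. Of the unchanged genes 775 passed it, 2 of them among the 7068 with a log2 signal of 10 or more. How often unchanged genes pass 1.5-fold between separate cultures was not tested. The number of arrays limits the precision. Alternatives were other scalings, the deposited values, normexp with an offset of 50, other probe choices, filters and fold limits. Software was limma 3.58.1 in R 4.3.3, and matplotlib 3.10.9, statsmodels 0.14.6, pandas 2.3.3 and numpy 2.4.6 in Python 3.11.15.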

Additional observations from a re-analysis of the deposited data

How the results depend on the processing

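No paired analysis was possible because vehicle and IR-61 were each hybridized once. Without scaling the median difference of the members was 0.48 and that of the pathway lists 0.46, with 0 members lower and 12 higher by 1.5-fold, and 8712 of all measured genes past it in place of 2613. The 75th percentile is a choice, since 36.7% of the genes past 1.5-fold were lower with it, 51.9% with scaling by the median, 47.0% with quantile normalization, 48.1% with loess, 46.8% in the deposited values and 46.5% with normexp, and the members lower by 1.5-fold numbered 3 or 4 under these, *Psmd5* being the one added, except normexp, with 2. Removing a trend over rows and columns put 1 member past 1.5-fold higher, *Psma7*. With the mean of a gene's probes the median of the members was −0.13, or −0.21 from that of all genes, and with the dimmest probe −0.15 and −0.21. With normexp it was 0.019 above that of all genes, and 1618 genes passed 1.5-fold. No filter on dim probes gave 4088 genes and a mean log2 intensity of 8 or more gave 1520. At 2-fold 0 members and 571 genes passed, and at a log2 limit of 0.32 it was 12 members lower, 3 higher and 6877 genes. Normexp, the dimmest probe and leaving out *Psmc3ip*, *Psma8* and *Psmb11* were added after seeing the data. For normexp, run on the median signal, 4 spots with a background above their own signal were given the median background. The cause of these changes was not tested. Of the 36 members, 35 or 36 moved by less than the SD between spots under the other scalings and the deposited values and 0 without scaling. A scaling by a constant moves all members by the same amount. A change of sign was looked for only in the 3 members past 1.5-fold, and none of these showed it. Of all 36, 19 were below 0 with the main scaling, as were 6554 of the 16885 measured genes. Without scaling 5 of the 36 were below 0, and the share of all measured genes below 0 was not counted there.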
